A study of Homo sapiens with 18 samples.

Results

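The loss of STIM1 was examined in GemR, a gemcitabine-resistant derivative of the human pancreatic cancer cell line L3.6pl. The comparison used 6 of the 18 messenger RNA libraries of the series, chosen by their labels: 3 of GemR cells with an siRNA against STIM1 (siSTIM1) and 3 of GemR cells with a control siRNA (siCont). The cells of all 6 had the siRNA for 48 h, had the solvent DMSO as vehicle for the last 3 h, and came from cells maintained in 64 nM gemcitabine. The same siRNA pair was also sequenced in 6 other libraries, in which 500 nM thapsigargin, a blocker of the pump that refills the calcium store, took the place of vehicle for those 3 h. Parental L3.6pl cells (Par) with siCont and vehicle, 3 libraries, give a level for orientation only. GemR is a single resistant derivative, all its libraries share the exposure to the drug, and the labels do not say how many siRNAs against STIM1 were used. Effects of the siRNA other than the loss of STIM1 therefore cannot be told apart from it.

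STIM1 is a protein of the endoplasmic reticulum membrane that senses the calcium in the store. When the store runs low it gathers beneath the plasma membrane and opens ORAI channels, and the calcium that enters refills the store and feeds calmodulin, calcineurin and NFAT. This store-operated calcium entry is the main calcium influx of many cells without electrical activity, and in tumour cells it has been linked to migration and survival.

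Values are normalized counts, gene read counts that the authors divided by a size factor for each library. They allow a gene to be compared between libraries, not one gene with another. The siSTIM1 libraries held 10861201, 12104283 and 12448616 reads and the siCont libraries 12175989, 14813197 and 13531411 reads, and 13096 genes with a mean of at least 10 were tested. A log2 fold change is siSTIM1 minus siCont on log2(normalized count + 1), which understates the change of low genes; the value after ± is its standard error for a log2 fold change and the SD (n = 3) for a count. Calls are those of limma with an adjusted p under 0.05. The spread behind the p-values and standard errors was pooled within the groups of all 18 libraries, not only the 6 compared. The labels number the replicates without saying that they were separate cultures, so this spread is only that between libraries of a group. The epithelial markers EPCAM, KRT8, KRT18, KRT19 and CDH1 were expressed in all 6 libraries, with EPCAM at 2353 to 2526 normalized counts with siSTIM1 and 2286 to 3386 with siCont, as an epithelial line has them. PDGFRB, DCN, LUM, THY1 and FAP of fibroblasts and LYZ of immune cells were at 0 in all 6, but COL1A1 reached 998 to 1221 normalized counts. Some markers of other cell types were present and lower with siSTIM1, namely PECAM1 (72.8 to 97.3, against 129 to 144), CDH5 (22.4 to 40.7, against 79.1 to 85.2), CD68 (71.2 to 120, against 129 to 152) and the low COL1A2 (0.993 to 7.12, against 4.45 to 19.9, ranges that overlapped). The calls of CD68 and COL1A2 were each lost under some alternatives. By contrast, KDR and VWF, also endothelial, stayed at or below 5.69 and PTPRC, of immune cells, at or below 3.97. Fewer cells of a type and less RNA per cell cannot be told apart in such bulk libraries, and the part of these markers in the results was not tested.

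One of the 6 libraries stood apart from the rest of its group. In siCont replicate 1 the deviation of a gene from its group mean fell with transcript length (Spearman's rho = -0.585 across 12419 genes, which are not independent), whereas the rho was 0.399 and 0.534 in the other siCont libraries and between -0.343 and 0.266 in the siSTIM1 libraries. Among the thapsigargin libraries, siSTIM1 replicate 1 had a rho of -0.507, against 0.372 and 0.379 in the rest of its group. Across 5 groups of genes by length, of nearly equal size, the median log2 fold change went from -0.20 in the shortest to 0.22 in the longest, and without siCont replicate 1 from -0.09 to 0.09. For some counts and values described below, the value with that library left out or with each library's length trend removed is given. Other values can have moved as well. Of the 5252 called genes with a known length, 4443 (84.6%) were called in the same direction after the trend was removed.

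**Figure D1:**
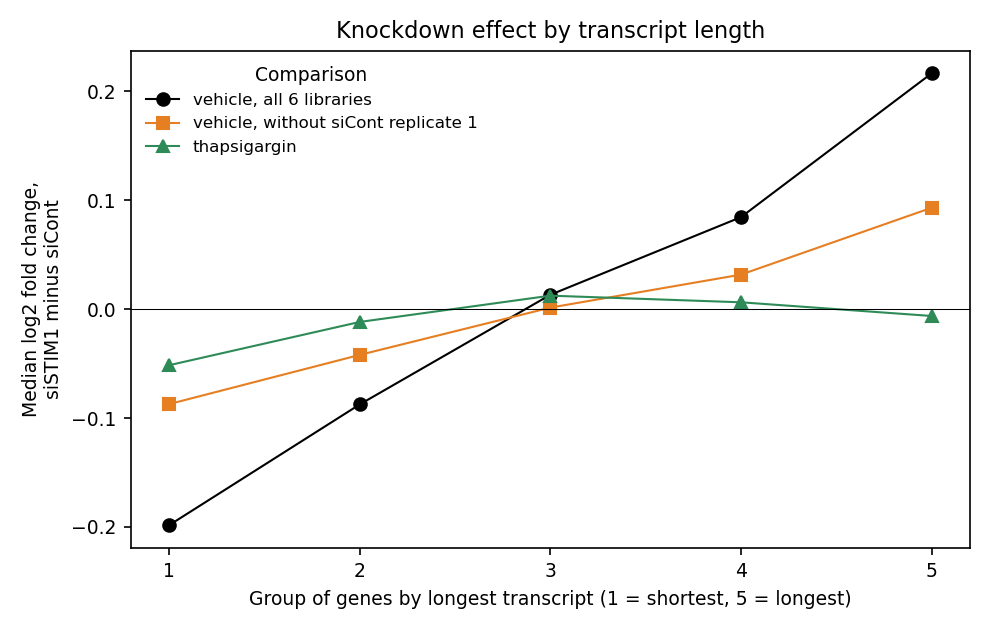
Median log2 fold change of siSTIM1 minus siCont (vertical axis) in 5 groups of genes ordered by the length of their longest transcript (horizontal axis), for the vehicle comparison with all 6 libraries, without siCont replicate 1, and for the comparison under thapsigargin. The vehicle line climbs from -0.20 to 0.22, the line without siCont replicate 1 climbs from -0.09 to 0.09, and the thapsigargin line stays between -0.05 and 0.01.

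STIM1 itself (chr11:3854527-4093210, + strand, hg38, GENCODE 29) fell. It had 390, 356 and 401 normalized counts in the siSTIM1 libraries, against 4976, 6294 and 6401 in the siCont libraries. The groups lay far apart, and every library stood on the side of its label. The fall was 15.3-fold (log2 fold change -3.93 ± 0.10, adjusted p = 7.2e-16), to a level below the 457 ± 20.6 of Par cells. RRM1, the neighbouring gene on chromosome 11 and the large subunit of ribonucleotide reductase, had 59323, 58788 and 55241 normalized counts with siSTIM1, against 55344, 50841 and 53625 with siCont. These ranges overlapped and the difference was not called (0.12 ± 0.06, adjusted p = 0.11), although it was called after the length trend was removed (adjusted p = 0.034). DESeq2 also called it higher (0.15, adjusted p = 0.045), in a fit without siSTIM1 replicate 3, the lowest library of its group. By edgeR on the same libraries it was not called (0.13, adjusted p = 0.11). Limma called it higher once the libraries were quantile-normalized (0.31, adjusted p = 0.0016). Of the 15 tested genes within 1 Mb of STIM1, STIM1 included, 6 were called, against 42.0% of all genes tested. PHLDA2, an imprinted growth-restraining gene, fell most among the called neighbours other than STIM1: it had 636, 702 and 634 normalized counts with siSTIM1, against 1272, 957 and 849 with siCont (-0.62 ± 0.12, adjusted p = 0.00032), and the fall was -0.38 after the length trend was removed. The other called neighbours NAP1L4, CARS, OSBPL5 and TRIM68 differed by 0.21 to 0.40 in size, and each lost its call when the 6 libraries were fitted alone, whereas NUP98, RHOG and PGAP2 were not called.

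**Figure D2:**
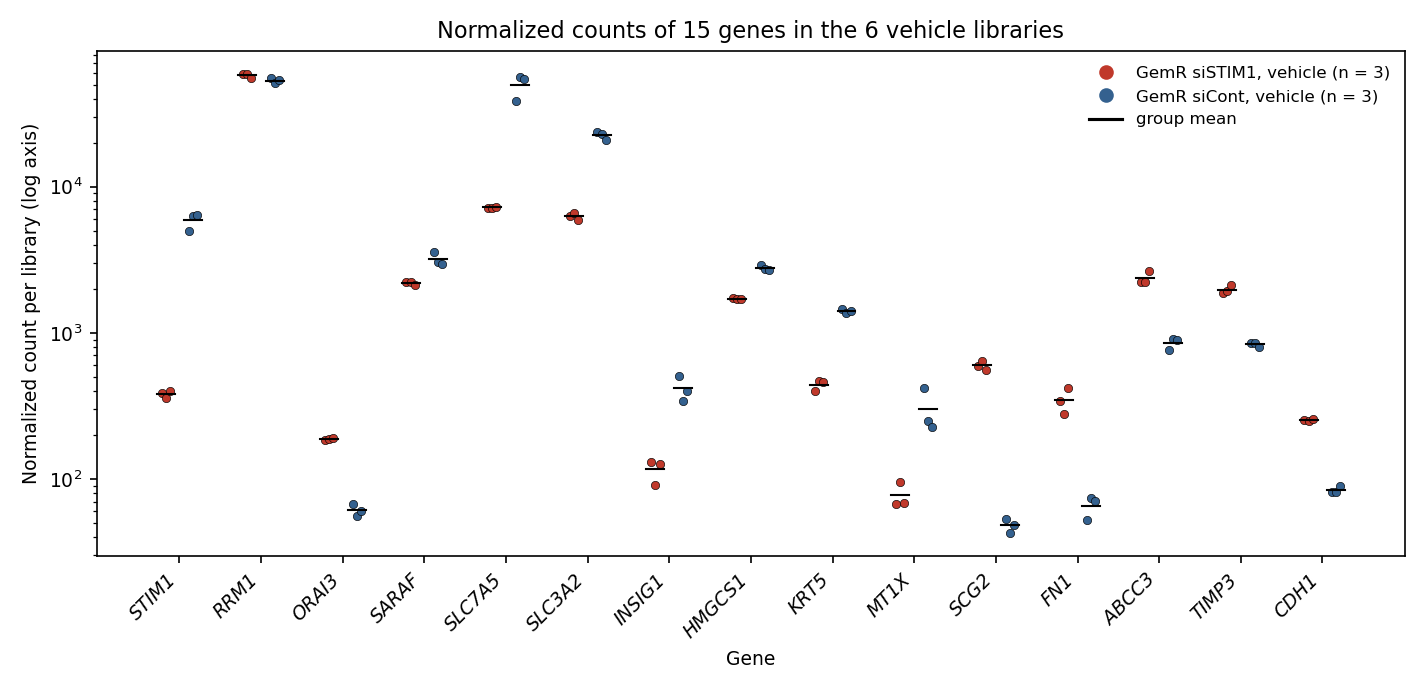
Normalized counts (vertical log axis) of 15 genes in each of the 3 siSTIM1 (red, left) and 3 siCont (blue, right) vehicle libraries, with the mean of each group as a bar. STIM1 lies between 356 and 401 with siSTIM1 and between 4976 and 6401 with siCont, while the values of RRM1 overlap; the other 13 genes do not overlap between the groups.

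The knockdown touched a large share of the transcriptome by small steps. Of the 13096 genes tested, 2733 (20.9%) were called higher with siSTIM1 and 2763 (21.1%) lower. At least 2-fold changes were rarer, with 444 genes (3.39%) higher and 218 (1.66%) lower. Without siCont replicate 1 the called genes were 2281 higher (17.4%) and 2286 lower (17.5%). Of all 5496 calls, 3539 (64.4%) held whichever of the 6 libraries was left out.

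**Figure D3:**
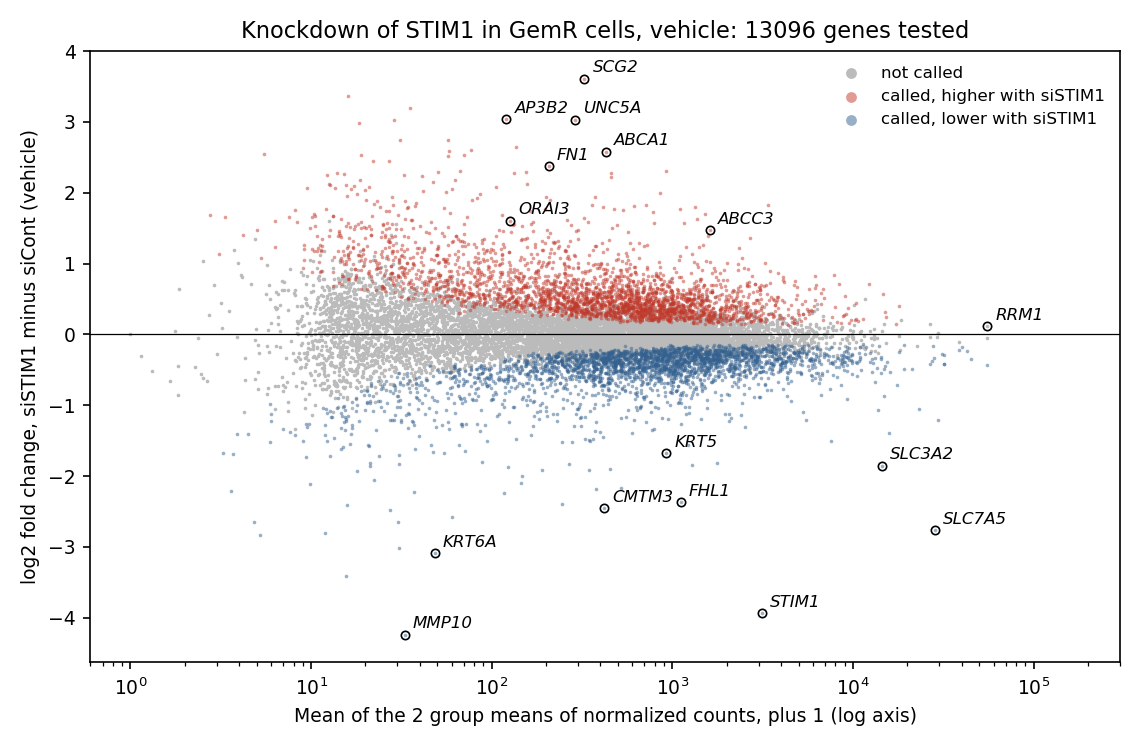
Log2 fold change of siSTIM1 minus siCont in vehicle (vertical axis) against the mean of both group means of normalized counts plus 1 (horizontal log axis) for the 13096 genes tested, coloured by whether they were called higher, lower or not. STIM1 (-3.93) and SLC7A5 (-2.77) stand out among abundant genes that fell, SCG2 (3.61) leads the genes that rose among those ringed, and RRM1 (0.12) lies near 0.

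The 12 largest rises among called genes whose groups did not overlap (47.0% of all genes tested did not) and whose larger group mean was at least 50 were in genes low in siCont. SCG2, which encodes secretogranin II, a protein of secretory granules, had 595, 642 and 561 normalized counts with siSTIM1, against 53.4, 42.9 and 48.3 with siCont. Every siSTIM1 library was far above every siCont library, a 12.2-fold rise for SCG2 on the fitted scale (3.61 ± 0.11, adjusted p = 2.9e-14). UNC5A, a receptor for the guidance cue netrin, had 484, 469 and 576 normalized counts against 61.2, 87.6 and 42.6 (3.03 ± 0.19, adjusted p = 6.0e-10). AP3B2, a subunit of the neuronal form of the AP-3 vesicle coat, averaged 214 ± 30.6 with siSTIM1 and 25.1 ± 3.36 with siCont (3.04 ± 0.20). SYNPO, the actin-associated protein synaptopodin, averaged 234 ± 25.2 and 37.3 ± 11.3 (2.65 ± 0.27), and NAV2, a neuron navigator protein, 129 ± 22.6 and 22.1 ± 11.5 (2.61 ± 0.30). In none of these genes did a siSTIM1 library come down to the highest siCont library, as the choice of genes required. PXDN, a peroxidase that crosslinks collagen IV (3.20 ± 0.32), EPS8L1 (2.75 ± 0.28), GOLGA7B (2.74 ± 0.29), SPOCD1 (2.59 ± 0.34), the membrane progestin receptor PAQR8 (2.54 ± 0.30) and LYPD3, a protein anchored in the outer membrane (2.52 ± 0.19), rose too, against siCont means between 5.87 and 19.7.

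ABCA1, which exports cholesterol from cells, belonged to the same top 12. It had 823, 669 and 694 normalized counts with siSTIM1, against 75.7, 152 and 152 with siCont (2.58 ± 0.24, adjusted p = 1.3e-07). The lowest siSTIM1 library was above the highest siCont library, which the choice of the 12 required. Under thapsigargin its means were 859 with siSTIM1 and 663 with siCont (0.34, adjusted p = 0.29), and the difference between the knockdown effects was called (-2.24 ± 0.34, adjusted p = 0.00052), as it was for 4.41% of all genes.

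An abundant amino acid transporter fell deeply. SLC7A5, the light chain of the LAT1 transporter for large neutral amino acids, had 7187, 7158 and 7316 normalized counts with siSTIM1, against 38818, 55977 and 54439 with siCont. Its siSTIM1 libraries were within a narrow range, far below all siCont libraries (-2.77 ± 0.10, adjusted p = 3.4e-13). The partner chain SLC3A2 had 6292, 6566 and 5907 normalized counts with siSTIM1, against 23832, 22956 and 20994 with siCont (-1.85 ± 0.07, adjusted p = 4.9e-13). Par cells averaged 36620 for SLC7A5 and 16405 for SLC3A2, so both stood lower with siSTIM1 than in GemR siCont or in Par. Under thapsigargin the falls were smaller, at -2.14 for SLC7A5 and -1.09 for SLC3A2, and the differences of 0.63 ± 0.14 and 0.77 ± 0.10 were called (adjusted p = 0.016 and 0.00010). Both transporter chains are targets of ATF4, the transcription factor of the PERK stress pathway, but the list of 26 tested PERK-ATF4 genes did not fall as a group. Of its members 8 were called higher and 10 lower, beside 20.9% and 21.1% of all genes, with a median of -0.09. Its higher members included SESN2, a stress-induced inhibitor of mTORC1 (0.80 ± 0.13), and CHAC1, which degrades glutathione (0.70), while ATF3 fell (-0.82 ± 0.16), as did the amino acid synthesis genes PHGDH (-0.40) and ASNS (-0.35).

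Among the other genes of the 12 lowest, MMP10, the matrix protease stromelysin 2, had 4.55, 1.02 and 1.99 normalized counts with siSTIM1, against 81.3, 54.3 and 48.3 with siCont (-4.24 ± 0.29, adjusted p = 2.5e-09). With so few reads the added 1 sets much of its fitted fold. FHL1, a LIM domain protein of the actin cytoskeleton, was measured more tightly, with 363, 380 and 341 normalized counts against 1834, 1837 and 1914 (-2.36 ± 0.07, adjusted p = 6.0e-15). CMTM3 averaged 128 ± 6.52 and 705 ± 95.7 (-2.45 ± 0.12), CD70, a ligand of the TNF family, 77.7 ± 18.4 and 412 ± 90.3 (-2.40 ± 0.22), and PTHLH, the parathyroid hormone-related peptide, 40.2 ± 5.46 and 192 ± 11.7 (-2.24 ± 0.14). The siSTIM1 libraries of all 4 were below every siCont library, which the choice of the 12 required. KRT6A, ASB2, MT1F, TPRG1 and RPRM completed the 12, with log2 fold changes between -3.09 and -2.22.

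Among the other genes of store-operated calcium entry, a channel subunit rose and a brake fell. ORAI3, which forms calcium channels with or beside ORAI1, had 185, 189 and 192 normalized counts with siSTIM1, against 67.9, 56.0 and 60.6 with siCont. The siSTIM1 values were close together and all above the siCont values (1.61 ± 0.15, adjusted p = 2.1e-07). SARAF, which shuts off STIM1-gated entry, had 2236, 2237 and 2134 normalized counts against 3552, 3063 and 2945 (-0.53 ± 0.06, adjusted p = 3.9e-06). STIM2, the second store sensor, had 393, 341 and 388 normalized counts against 366, 401 and 380, ranges that overlapped (-0.03 ± 0.10, adjusted p = 0.79). ORAI1 (0.00 ± 0.10, adjusted p = 0.998) and ORAI2 (0.22 ± 0.13, adjusted p = 0.17) were not called either. TRPM7, a channel kinase, was called at the edge (0.36 ± 0.14, adjusted p = 0.048) and not after the length trend was removed (adjusted p = 0.44) or in 4 of the 6 fits without 1 library. CRACR2B (-0.45 ± 0.23), TRPC1 (-0.72 ± 0.32) and ESYT1 (-0.14 ± 0.07) did not pass. In all, 2 of 10 tested members were called higher and 2 lower, STIM1 among them, close to the 20.9% and 21.1% of all genes. The list had 1 higher and 4 lower without siCont replicate 1, and CRACR2A and TRPC6 were at 0 in the 6 libraries.

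Genes that hold, move and read calcium shifted in both directions. Of 24 tested genes of stores, pumps and channels, 8 were called higher and 3 lower, beside 20.9% and 21.1% of all genes. The list median was 0.17. Without siCont replicate 1 the list had 4 higher and 4 lower, and 5 were higher without siSTIM1 replicate 1 or replicate 3. ATP2C2, a calcium pump of the secretory pathway, had 66.0, 49.8 and 58.6 normalized counts with siSTIM1, against 16.7, 19.3 and 22.7 with siCont (1.52 ± 0.19, adjusted p = 4.6e-06). SLC8A1, the sodium-calcium exchanger, averaged 36.1 ± 6.97 and 13.5 ± 5.28 (1.40 ± 0.35, adjusted p = 0.0038, and 0.95 after the length trend was removed). Downward, CALM3, a gene of the calcium sensor calmodulin, had 1490, 1531 and 1476 normalized counts against 3422, 3267 and 3183, groups with a gap several times wider than their spread (-1.13 ± 0.06, adjusted p = 2.2e-10). CALR, the calcium-binding chaperone calreticulin, fell by 0.41 on the log2 scale, and by 0.25 after the length trend was removed.

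In the calcineurin-NFAT list 5 of 14 tested genes were called higher and 3 lower, beside 20.9% and 21.1% of all genes. Without siSTIM1 replicate 3 these were 3 and 1, and by edgeR or DESeq2, which also lack that library, 2 and 1. The catalytic subunit PPP3CA had 1446, 1296 and 1359 normalized counts with siSTIM1, against 851, 946 and 992 with siCont (0.56 ± 0.08, adjusted p = 1.4e-05). The transcription factor NFATC2 went the other way, with 86.5, 53.9 and 78.5 normalized counts against 100, 116 and 153 (-0.76 ± 0.19, adjusted p = 0.0038). Genes that answer to NFAT and CREB were split, 5 of 19 higher and 5 lower, and 7 and 7 after the length trend was removed. The immediate early factors EGR2 (7.63 ± 1.14 and 34.9 ± 4.16 normalized counts, -2.06 ± 0.21), EGR3 (10.2 ± 3.01 and 35.2 ± 3.41, -1.71 ± 0.29) and FOSB (52.1 ± 2.79 and 193 ± 9.96, -1.87 ± 0.21) fell. PTGS2, the inducible cyclooxygenase, rose instead, with 823, 731 and 870 normalized counts against 380, 461 and 481 (0.88 ± 0.13, adjusted p = 3.2e-05), and so did the nuclear receptor NR4A1 (0.59 ± 0.14). Under thapsigargin, 2 of these 19 genes were called higher and 12 lower with siSTIM1, where 17.7% of all genes were called higher and 18.9% lower.

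Genes of sterol synthesis fell together. The transcription factor SREBP2, the product of SREBF2, drives these genes when membrane cholesterol is low, and it works with the factor NF-Y, which binds the CCAAT box. Of 23 tested members 22 were called lower with siSTIM1, 0 higher, with a median of -0.67, beside 21.1% lower and a median of 0.00 over all genes tested. The count was 22 after the length trend was removed, a fit in which 22.5% of all genes were called lower, and 21 without siCont replicate 1. Summed over the list, the normalized counts were 25518 to 27739 in the siSTIM1 libraries, against 38468 to 38961 in the siCont libraries, with no overlap. INSIG1, which retains the SREBP complex in the endoplasmic reticulum, led the fall: it had 130, 91.5 and 127 normalized counts with siSTIM1, against 503, 344 and 402 with siCont (-1.83 ± 0.14, adjusted p = 1.4e-08). STARD4, a carrier of cholesterol between membranes, had 176, 186 and 210 normalized counts against 565, 479 and 554 (-1.48 ± 0.12, adjusted p = 1.2e-08). HMGCS1, which makes HMG-CoA, had 1721, 1694 and 1710 against 2890, 2742 and 2700 (-0.70 ± 0.08, adjusted p = 2.9e-06). In all 3 genes each siSTIM1 library was below each siCont library. Squalene epoxidase SQLE (-1.03 ± 0.09), HSD17B7 (-1.26 ± 0.17) and SREBF2 itself (-0.53 ± 0.09) fell as well. The member not called was LSS, lanosterol synthase, with 447, 496 and 532 normalized counts against 550, 553 and 581 (-0.19 ± 0.08, adjusted p = 0.057). It was called lower after the length trend was removed (-0.28, adjusted p = 0.0083). It was also called by edgeR (-0.26, adjusted p = 0.026) and by DESeq2 (-0.25, adjusted p = 0.033), but both fits lack siSTIM1 replicate 3. Limma without that library called it as well (-0.25, adjusted p = 0.031), so the count tools add little here. Under thapsigargin 21 of the 23 were called lower and 0 higher, in libraries that the vehicle comparison does not use. Over all genes 18.9% were lower there and 17.7% higher.

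The promoters of 3 sterol genes are shown because the genes moved together, as the 250 bases before the start in RefSeq (GRCh38.p14), on the gene's strand, with each CCAAT box in capitals as CCAAT or, on the opposite strand, ATTGG. INSIG1 lies at chr7:155297628-155297877 (+ strand), STARD4 at chr5:111512536-111512785 (- strand) and HMGCS1 at chr5:43313413-43313662 (- strand).
INSIG1: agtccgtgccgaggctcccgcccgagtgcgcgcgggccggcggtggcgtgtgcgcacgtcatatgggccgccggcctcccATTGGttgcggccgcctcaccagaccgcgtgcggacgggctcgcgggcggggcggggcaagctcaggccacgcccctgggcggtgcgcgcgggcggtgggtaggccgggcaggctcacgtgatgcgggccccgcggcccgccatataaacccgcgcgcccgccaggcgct
STARD4: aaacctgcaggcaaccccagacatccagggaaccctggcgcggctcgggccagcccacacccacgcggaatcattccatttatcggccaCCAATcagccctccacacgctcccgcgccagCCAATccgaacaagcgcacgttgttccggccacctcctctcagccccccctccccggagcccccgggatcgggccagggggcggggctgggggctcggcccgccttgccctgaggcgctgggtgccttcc
HMGCS1: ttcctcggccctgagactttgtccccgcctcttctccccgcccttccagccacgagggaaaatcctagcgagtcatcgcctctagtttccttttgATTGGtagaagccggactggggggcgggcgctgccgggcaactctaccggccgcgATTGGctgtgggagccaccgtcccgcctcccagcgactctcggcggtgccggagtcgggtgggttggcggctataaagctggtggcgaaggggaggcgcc
Of the list, 16 members had a promoter in the RefSeq table, and 14 of these (87.5%) held at least 1 CCAAT in the window on either strand, against 33.0% of all 27305 promoters. At least 2 were found in 9 of the 16 (56.2%), against 10.0% of all. The sterol regulatory element, searched as TCACNCCAC on both strands, was found in 1 of the 16 (6.25%), SREBF2, against 0.875% of all. Such matches describe the letters of the window and do not show a bound factor. The list for fatty acid synthesis did not move with the sterol list: 3 of 11 were called lower and 0 higher, with a median of -0.01. These were the desaturase SCD (-0.57 ± 0.10), the elongase ELOVL6 (-0.35 ± 0.09) and the malic enzyme ME1 (-0.34 ± 0.07). After the length trend was removed 6 were called lower, and 5 without siCont replicate 1.

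Metallothioneins, small cysteine-rich proteins that bind zinc and copper, fell too. Of the 5 tested genes of their list, SLC30A1 and MTF1 included, 4 were called lower and 0 higher, with a median of -1.33. Over all genes 21.1% were called lower and 20.9% higher. All 5 were called lower without siCont replicate 1 and after the length trend was removed. MT1X had 67.1, 95.6 and 68.5 normalized counts with siSTIM1, against 421, 250 and 228 with siCont (-1.91 ± 0.19, adjusted p = 2.5e-07). MT2A had 428, 512 and 399 normalized counts against 1502, 1026 and 905 (-1.33 ± 0.14, adjusted p = 4.2e-07). In both genes siCont replicate 1 was the highest library, and the other siCont libraries were still above every siSTIM1 library. MT1F averaged 7.29 ± 1.47 and 51.0 ± 8.09 (-2.65 ± 0.26), and SLC30A1, the zinc exporter that zinc induces with them, fell by 0.43 on the log2 scale (adjusted p = 0.0057). MTF1, the zinc-sensing factor that drives these genes, was not called (-0.17 ± 0.14, adjusted p = 0.34). It was called lower after the length trend was removed (-0.38, adjusted p = 0.00053) and without siCont replicate 1 (-0.40, adjusted p = 0.0018). Metallothionein genes are close copies of each other, so the split of reads among them is uncertain. The same window of MT1X at chr16:56682220-56682469 (+ strand) and MT2A at chr16:56608334-56608583 (+ strand) shows the metal response element, searched as TGCNCNC on both strands, in capitals; matches on opposite strands can share bases.
MT1X: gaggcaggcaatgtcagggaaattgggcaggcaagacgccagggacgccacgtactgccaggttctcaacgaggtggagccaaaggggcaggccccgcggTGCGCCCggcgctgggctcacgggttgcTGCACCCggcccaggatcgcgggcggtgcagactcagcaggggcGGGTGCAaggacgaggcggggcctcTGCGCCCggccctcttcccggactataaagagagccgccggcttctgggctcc
MT2A: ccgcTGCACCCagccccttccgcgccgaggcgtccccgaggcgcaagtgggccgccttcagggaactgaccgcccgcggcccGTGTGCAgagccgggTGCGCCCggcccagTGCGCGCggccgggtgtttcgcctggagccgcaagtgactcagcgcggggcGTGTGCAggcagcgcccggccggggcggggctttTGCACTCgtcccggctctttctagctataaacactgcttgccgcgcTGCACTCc
MT1X held 4 matches and MT2A 7, whereas 1.70% of all promoters held 4 or more and 48.4% at least 1. Of 4 promoters of the list in the table, 3 held at least 1.

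Most tested genes of the basal-like or squamous subtype of pancreatic cancer fell with the knockdown. Of 11 tested members of 20 in the list, 9 were called lower and 1 higher, beside 21.1% and 20.9% of all genes. The list median was -1.07. KRT5, a keratin of basal epithelial cells, had 399, 465 and 462 normalized counts with siSTIM1, against 1451, 1365 and 1407 with siCont (-1.67 ± 0.07, adjusted p = 5.5e-12). TP63, the transcription factor of squamous cells, had 724, 712 and 866 normalized counts against 1215, 1512 and 1617 (-0.91 ± 0.10, adjusted p = 1.6e-06). The calcium-binding protein S100A2 averaged 8520 ± 629 and 23026 ± 7208 (-1.39 ± 0.14), and KRT17 averaged 17617 ± 1209 and 41486 ± 9808 (-1.21 ± 0.13). None of these 4 overlapped between the groups. KRT6A averaged 9.56 ± 4.30 with siSTIM1 and 85.0 ± 20.8 with siCont (-3.09), and KRT16 was the member called higher (0.62 ± 0.16). KRT6A, KRT16 and KRT17 have near-identical copies, and their counts are uncertain for that reason. The classical subtype list had 6 of 11 tested genes higher and 2 lower, among them the trefoil factor TFF2, higher at 216 ± 8.68 and 88.6 ± 34.6 normalized counts (1.34 ± 0.20), and the endoderm factor FOXA2, lower at 30.2 ± 4.58 and 74.4 ± 2.43 (-1.28 ± 0.20).

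Genes of the epithelial list, junction genes and keratins among them, were more often higher than lower. In this list 9 of 20 were called higher and 2 lower, beside 20.9% and 21.1% of all genes. Leaving out 1 library gave 6 to 9 higher and 1 to 3 lower. Under thapsigargin 8 were higher and 5 lower, beside 17.7% and 18.9% of all genes. The list median was 0.28. CDH1, the gene of E-cadherin, had 254, 250 and 258 normalized counts with siSTIM1, against 81.3, 81.4 and 89.0 with siCont, 2 tight clusters (1.59 ± 0.14, adjusted p = 6.7e-08). The tight junction gene TJP3 averaged 174 ± 24.8 and 53.4 ± 9.72 (1.69 ± 0.21), and P-cadherin, CDH3, 1844 ± 109 and 1131 ± 69.4 (0.71 ± 0.07), whereas KRT19 fell (-0.72 ± 0.11, and -0.38 after quantile normalization). For CDH1 the knockdown effect depended on the treatment: under thapsigargin the means were 454 with siSTIM1 and 431 with siCont, and the difference between the effects was -1.51 ± 0.20 (adjusted p = 0.00011). The mesenchymal list was divided, with 4 of 14 higher and 4 lower. FN1, the gene of fibronectin, had 344, 278 and 416 normalized counts with siSTIM1, against 52.3, 73.6 and 71.0 with siCont, a rise of 2.38 ± 0.18 (adjusted p = 9.0e-09). COL3A1, a fibrillar collagen, fell, at 74.2 ± 14.1 and 174 ± 9.53 (-1.23 ± 0.12).

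Genes of cell adhesion and basement membrane were called higher more often than lower. Of 26 tested integrin and matrix genes 15 were called higher and 1 lower, beside 20.9% higher over all genes; without siCont replicate 1 these were 11 and 1, and 13 and 2 after the length trend was removed, a fit with 21.3% of all genes called higher. COL4A2, a chain of collagen IV, had 3245, 3200 and 3382 normalized counts with siSTIM1, against 1132, 1561 and 1551 with siCont (1.23 ± 0.09, adjusted p = 4.9e-09). COL17A1 of hemidesmosomes averaged 2133 ± 100 and 1180 ± 164 (0.86 ± 0.09). The collagen receptor subunit ITGA1 averaged 233 ± 15.3 and 128 ± 13.3 (0.86 ± 0.12, and 0.57 after the length trend was removed). The member that fell was THBS1, thrombospondin 1 (-0.62 ± 0.15). Under thapsigargin the list had 7 higher and 3 lower, beside 17.7% and 18.9% of all genes there. Among the matrix proteases and their inhibitors 9 of 18 were called higher and 3 lower. The inhibitor TIMP3 had 1873, 1934 and 2128 normalized counts against 855, 851 and 805 (1.24 ± 0.08, adjusted p = 5.5e-10), and the gelatinase MMP2 averaged 207 ± 14.1 and 103 ± 14.2 (1.02 ± 0.13). The interstitial collagenase MMP1 fell with MMP10, at 33.4 ± 2.08 and 107 ± 18 (-1.64 ± 0.14).

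**Figure D4:**
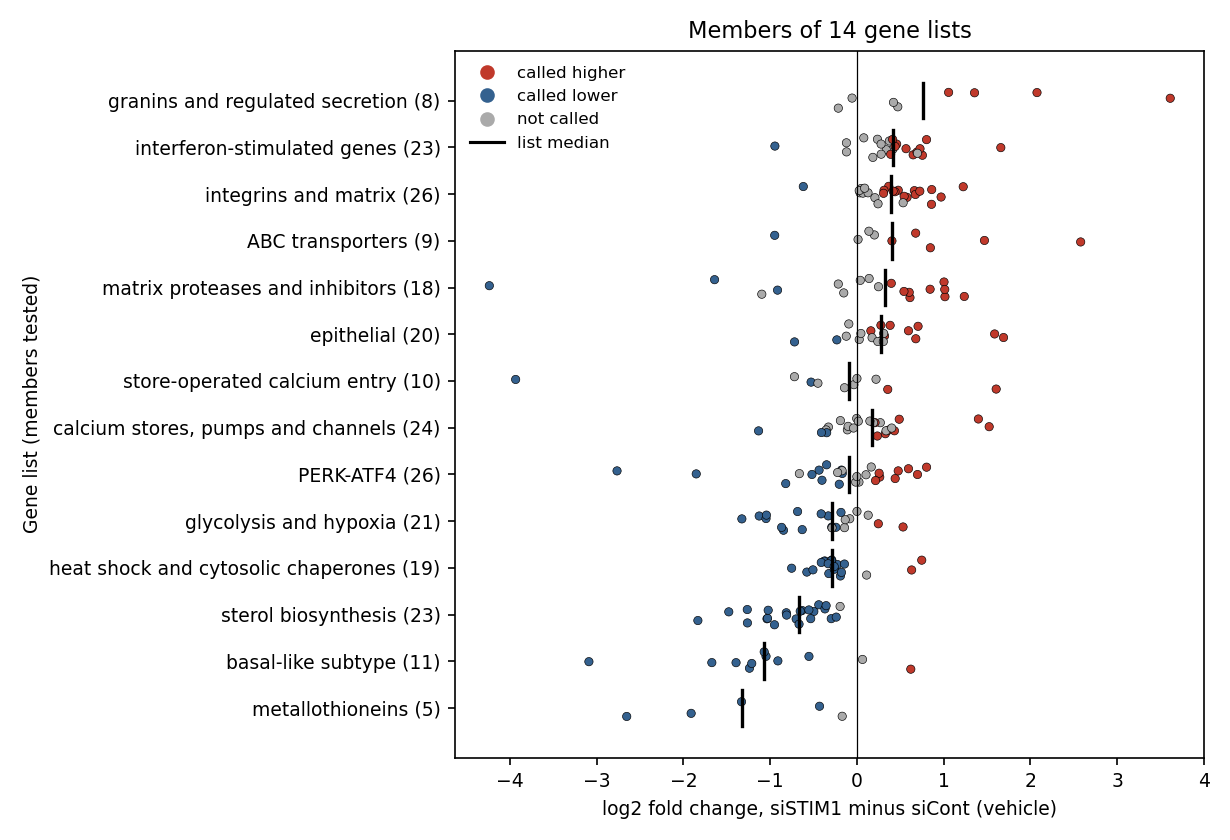
Log2 fold change of siSTIM1 minus siCont in vehicle (horizontal axis) for the tested members of 14 gene lists (rows, with the number tested), each point a gene coloured by its call and each bar the list median. The sterol (-0.67), basal-like (-1.07) and metallothionein (-1.33) medians lie left of 0, and the medians of integrin and matrix genes (0.39), ABC transporters (0.40) and interferon-stimulated genes (0.41) lie right of it.

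Most tested sugar transport and hypoxia genes were lower. In this list 13 of 21 tested genes were called lower and 2 higher, beside 21.1% and 20.9% of all genes. The median was -0.29, and 14 were lower both without siCont replicate 1 and after the length trend was removed. SLC2A1, the glucose transporter GLUT1, had 15073, 15411 and 14796 normalized counts with siSTIM1, against 27106, 33387 and 33542 with siCont (-1.05 ± 0.08, adjusted p = 4.4e-09), a fall of -0.64 after quantile normalization. ADM, adrenomedullin, averaged 1020 ± 36.7 and 2106 ± 147 (-1.04 ± 0.09), and SLC2A3 and PFKFB4 fell by 1.33 and 1.13 on the log2 scale. The histone demethylase KDM3A rose (0.53 ± 0.09, and 0.30 after the length trend was removed). Heat shock and cytosolic chaperone genes were lower in 16 of 19 and higher in 2, with a median of -0.29, and lower in 13 both without siCont replicate 1 and after the length trend was removed. HSPB1 averaged 1971 ± 118 and 3375 ± 785 (-0.75 ± 0.13, and -0.53 after the length trend was removed). CHORDC1 (0.75 ± 0.09) and DNAJB4 (0.63 ± 0.12) were the members that rose. After quantile normalization 9 of the 19 heat shock genes were called lower.

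Interferon-stimulated genes were called higher more often than lower. Of 23 tested members 11 were called higher and 1 lower, beside 20.9% and 21.1% of all genes, with a median of 0.41. The number higher was between 6, without siSTIM1 replicate 3, and 10 when 1 of the 6 libraries was left out. After the length trend was removed 15 were higher and 2 lower. OASL, of the oligoadenylate synthetase family, had 104, 112 and 116 normalized counts with siSTIM1, against 34.5, 32.4 and 36.0 with siCont (1.66 ± 0.18, adjusted p = 7.6e-07). IFIT1 averaged 217 ± 13.0 and 125 ± 25.2 (0.80 ± 0.16), and BST2, tetherin, went the other way at 47.2 ± 3.77 and 93.5 ± 24.1 (-0.95 ± 0.26). Of 8 tested genes of granins and regulated secretion 4 were called higher and 0 lower. Beside SCG2 these were SNAP25, a SNARE of vesicle fusion, at 170 ± 24.8 and 40.0 ± 9.97 (2.08 ± 0.17), and the low genes PCSK1 (1.36 ± 0.44) and VGF (1.06 ± 0.40), which lost the call in 3 and 5 of the 6 fits without 1 library.

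Genes that handle gemcitabine and other drugs changed singly. The gemcitabine list had 3 of 19 higher and 8 lower, beside 20.9% and 21.1% of all genes, but 5 higher and 3 lower after the length trend was removed, and 5 lower without siSTIM1 replicate 3. RRM2, the small subunit of ribonucleotide reductase, had 3272, 3598 and 3261 normalized counts with siSTIM1, against 2273, 2197 and 2207 with siCont (0.60 ± 0.06, adjusted p = 3.3e-07), and its p53-inducible counterpart RRM2B fell, at 404 ± 40.2 and 670 ± 72.7 (-0.72 ± 0.12). The nucleoside transporter SLC29A2 averaged 222 ± 8.44 and 332 ± 38.2 (-0.57 ± 0.08), and the ecto-nucleotidase NT5E rose (0.60 ± 0.08). Of 9 tested ABC transporters 5 were called higher and 1 lower. The efflux pump ABCC3 had 2234, 2225 and 2635 normalized counts against 757, 909 and 892, with the lowest siSTIM1 library far above the highest siCont library (1.47 ± 0.08, adjusted p = 1.2e-10). ABCG2 averaged 143 ± 9.97 and 79.3 ± 7.94 (0.85 ± 0.15), and ABCB1 10.7 ± 3.66 and 21.0 ± 2.35 (-0.95 ± 0.24).

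Cell cycle genes moved in both directions. CDK4, the kinase of G1 progression, had 2972, 3124 and 3003 normalized counts with siSTIM1, against 6299, 5202 and 5135 with siCont (-0.86 ± 0.07, adjusted p = 1.9e-08), and its partner cyclin CCND1 averaged 10364 ± 67.3 and 15074 ± 1370 (-0.54 ± 0.07). CDKN2B, an inhibitor of this kinase, had 941, 839 and 864 normalized counts against 357, 441 and 453 (1.08 ± 0.10, adjusted p = 1.3e-07). CDKN2D, a related inhibitor, was lower instead, at 79.0 ± 12.8 and 111 ± 15.7 (-0.49 ± 0.16, adjusted p = 0.022), a call lost after the length trend was removed (adjusted p = 0.17). In the G1 list 7 of 15 were called lower and 2 higher, in the S phase list 10 of 24 and 3, and in the G2/M list 8 of 24 and 2, beside 21.1% lower and 20.9% higher over all genes. These balances depended on the processing: after the length trend was removed the S phase list had 8 lower and 5 higher and the G2/M list 6 and 4, and leaving out 1 library gave 0 to 6 G2/M genes higher. Without siCont replicate 1 the S phase list had 7 lower and 5 higher, and under thapsigargin 5 and 9. Over all genes 17.5% were lower and 17.4% higher without siCont replicate 1, and 18.9% and 17.7% under thapsigargin. The replication factor GINS1 averaged 369 ± 35.0 and 772 ± 17.0 (-1.07 ± 0.08), and the S phase cyclin CCNE2 averaged 552 ± 52.9 and 300 ± 17.0 (0.87 ± 0.12). The p53 list was lower in 7 of 20 and higher in 2 (4 without siCont replicate 1), with DDB2 (-0.86 ± 0.09) and MDM2 (-0.79 ± 0.10) down and the DNA damage sensor XPC up (0.81 ± 0.08). For MDM2 the fall was -1.12 after the length trend was removed.

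Developmental signals were mixed. The Wnt targets LGR5, at 31.2 ± 4.79 and 4.52 ± 0.19 normalized counts (2.53 ± 0.35), and AXIN2, at 90.6 ± 14 and 33.8 ± 3.69 (1.39 ± 0.22), rose. The Wnt list had 7 of 21 higher and 3 lower, beside 20.9% and 21.1% of all genes. ID1, a target of BMP signalling, had 3246, 3513 and 3132 normalized counts with siSTIM1, against 9338, 7412 and 6403 with siCont (-1.21 ± 0.13, adjusted p = 5.0e-07). ID3 fell likewise (-1.13 ± 0.13), while the ligand BMP4 rose, at 456 ± 28.9 and 228 ± 24.7 (1.00 ± 0.16). The TGF-beta and BMP list as a whole had 5 of 20 higher and 5 lower, near the shares over all genes.

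The counts of several lists depended on single libraries of either group. In the full fit 20.9% of all genes were called higher and 21.1% lower. These shares were 17.4% and 17.5% without siCont replicate 1, and 17.7% and 18.9% under thapsigargin. Of all genes, 2170 were lower without siSTIM1 replicate 1, 2218 without siSTIM1 replicate 3 and 2758 after quantile normalization. Cytosolic ribosomal protein genes were lower in 22 of 34 with a median of -0.34, but lower in 9 of 34 without siCont replicate 1, in 10 without siSTIM1 replicate 1 or replicate 3, in 8 after quantile normalization and in 2 under thapsigargin. RPS2 had 3735, 4815 and 3951 normalized counts with siSTIM1, against 7325, 5763 and 5334 with siCont, the highest value being that of replicate 1 (-0.55 ± 0.11, adjusted p = 0.00043), and its fall was -0.34 after the length trend was removed. Respiratory chain genes were lower in 14 of 22, in 8 without siCont replicate 1 or siSTIM1 replicate 1, in 9 without siSTIM1 replicate 3, in 8 after quantile normalization and in 6 under thapsigargin. Genes of chromatin modifiers, whose transcripts are long, were higher in 12 of 26 with a median of 0.39, in 9 without siCont replicate 1 and in 4 under thapsigargin. KMT2A, a histone methyltransferase, had 3248, 2480 and 3220 normalized counts against 788, 1933 and 2177, so that siCont replicate 1 was by far the lowest library (0.99 ± 0.27, adjusted p = 0.0070). Its log2 fold change was 0.53 without siCont replicate 1 and 0.59 after the length trend was removed. The call was lost by DESeq2, which lacks siSTIM1 replicate 3 (adjusted p = 0.071), and with the 6 libraries fitted alone (adjusted p = 0.057).

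The thapsigargin libraries show which effects of the knockdown recurred, in a comparison that shares no library with the vehicle comparison. Both come from the same fit and use the same estimate of a gene's spread, so their calls are not independent. Of the 2733 genes called higher in vehicle, 1446 (52.9%) were called higher under thapsigargin as well, which was 62.3% of the genes higher there; over all genes the share was 17.7%. Of the 2763 genes called lower, 1528 (55.3%) were lower there too, 61.7% of the genes lower under thapsigargin, beside 18.9% over all genes. Called in the opposite direction were 55 and 18. Among at least 2-fold changes the share was 72.7% of 444 higher and 79.4% of 218 lower genes. Across all 13096 genes, which are not independent, the log2 fold changes of both comparisons had Pearson's r = 0.71 and Spearman's rho = 0.64. The difference between the knockdown effects was called for 577 genes (4.41%), and for 332 of the 5496 genes called in vehicle (6.04%). It was higher under thapsigargin for 197 of the 577 (1.50% of all genes) and lower for 380 (2.90%), but for 447 and 769 without siCont vehicle replicate 3. CXCR4, a chemokine receptor, had 196, 210 and 173 normalized counts with siSTIM1, against 100, 87.6 and 89.0 with siCont in vehicle, and averaged 78.4 and 202 under thapsigargin (difference -2.41 ± 0.16, adjusted p = 4.1e-08). PDE7B, which degrades cyclic AMP, was higher with siSTIM1 under both treatments, by 0.65 in vehicle and 2.19 under thapsigargin (difference 1.54 ± 0.15, adjusted p = 2.5e-06).

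**Figure D5:**
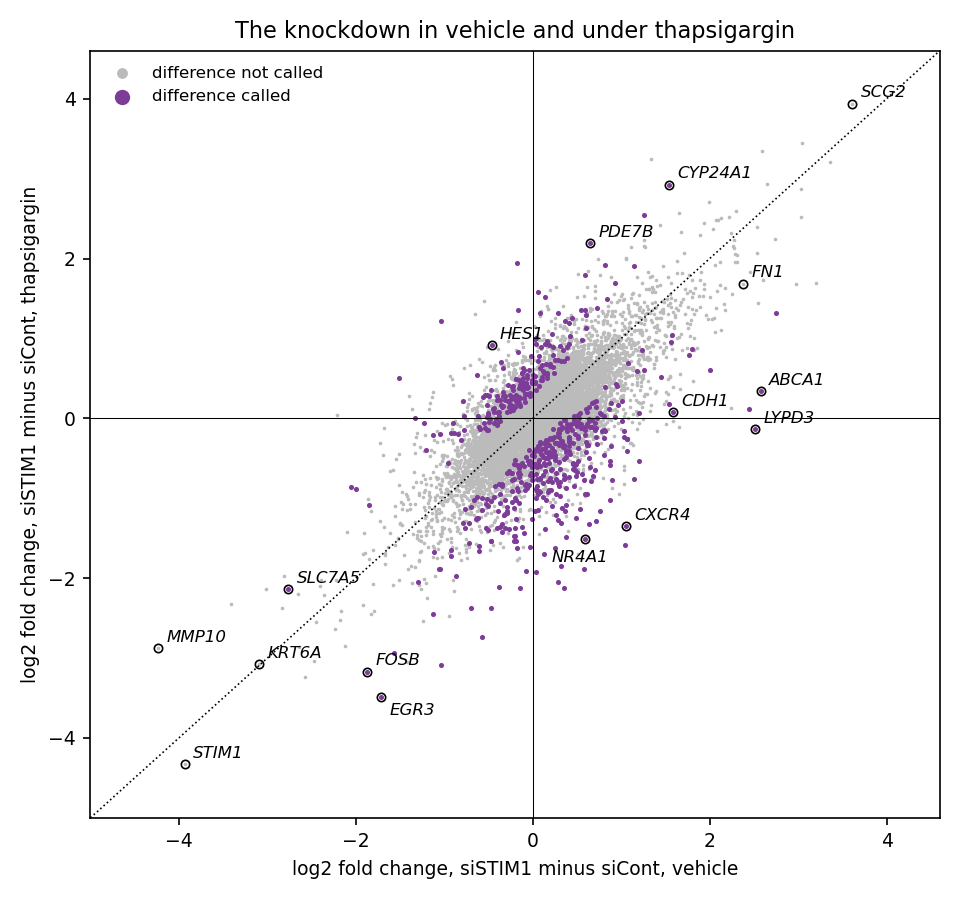
Log2 fold change of siSTIM1 minus siCont in vehicle (horizontal axis) and under thapsigargin (vertical axis) for 13096 genes, with the 577 genes whose difference between the comparisons was called in purple and equality as a dotted line. STIM1, SCG2 and KRT6A lie near the line, whereas ABCA1, LYPD3 and CDH1 rose in vehicle and lie near 0 under thapsigargin.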

How the data were processed

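Messenger RNA of GemR and parental L3.6pl cells was sequenced in 18 libraries, 3 per group. Per the submitters' processing notes, the tools named were STAR 2.6.0c, HTSeq 0.11.1 and DESeq2, with the build hg38; the annotation is not given in the sources used here. What the authors deposited was a signal per gene, the read count divided by a size factor of the library, for 26485 genes, 28 of whose names had turned into dates. Whole reads were recovered from these values (within 0.01 of a whole number), 8922439 to 16519239 per library. Counting error is therefore small for all but low genes.

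Genes with a mean of at least 10 over all libraries (13096) were fitted with limma 3.58.1 (R 4.3.3, trend) on log2(normalized count + 1), 1 mean per group and 12 residual degrees of freedom. The contrasts were two-sided, with Benjamini-Hochberg adjustment over all genes tested: siSTIM1 minus siCont in vehicle, under thapsigargin, and the difference between them. The fit was tested on simulated data. Alternatives were other added constants, filters, normalizations, sample sets and each library left out, a replicate block, removal of each library's transcript-length trend (lengths from GENCODE 29), and edgeR 4.0.16 and DESeq2 1.42.0 on recovered read counts. The count tools used 17 libraries. Left out was siSTIM1 vehicle replicate 3, because 1 read was worth 0.993 in it, near the 1 of rounded values. Its values too gave whole reads, so the fits by edgeR and DESeq2 had 1 siSTIM1 vehicle library fewer than the data allowed.

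The genes described were RRM1 and STIM1, the 12 highest and 12 lowest called genes with groups that did not overlap and a group mean of at least 50, up to 4 leading called members of each gene list, all tested genes of store-operated calcium entry, called genes within 1 Mb of STIM1, and the leading differences between treatments. Other genes named were chosen after their values were seen. The members and lists were chosen with earlier results of these data known. The authors' deposited comparison tables were not used here. Promoter sequences are from RefSeq.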

Additional observations from a re-analysis of the deposited data

Results flagged for a closer look

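For 29 of 142 named genes the siSTIM1 effect under thapsigargin differed from that in vehicle, by a test of the difference (limma, adjusted p under 0.05). Over all genes 4.41% passed. Some genes were named because this difference was large, so the named genes cannot be set against that share. Values are the log2 effect under thapsigargin minus that in vehicle. In 17 genes the difference was negative. It was -2.65 for LYPD3, -2.41 for CXCR4, -2.24 for ABCA1 and -2.09 for NR4A1. It was -1.77 for EGR3, -1.51 for CDH1, -1.43 for EPS8L1, -1.41 for PTGS2 and -1.30 for FOSB. Smaller ones were -0.95 for KRT16, -0.84 for SLC2A1, -0.74 for ITGA1, -0.57 for SLC29A2, -0.53 for MDM2, -0.47 for KDM3A, -0.47 for ELOVL6 and -0.39 for TIMP3. In 12 genes it was positive. It was 1.54 for PDE7B, 1.38 for HES1, 1.38 for CYP24A1, 1.34 for CDH5 and 1.195 for EGR2. Smaller ones were 0.91 for ID3, 0.82 for ID1, 0.77 for SLC3A2, 0.63 for SLC7A5, 0.49 for ASNS, 0.49 for CARS and 0.33 for CALR.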

How the results depend on the processing

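Under the 21 alternatives for the vehicle comparison STIM1 stayed called lower. Leaving out 1 library gave 2094 to 3017 genes higher and 2170 to 3064 lower in vehicle, and 102 to 447 higher and 221 to 769 lower for the difference between treatments. Fitting only the libraries compared gave 1704 higher and 1590 lower in vehicle, and 81 and 236 for the difference, the same as with the 12 GemR libraries; the construction leaves fewer residual degrees of freedom. At an adjusted p under 0.01 the counts were 1762 and 1822 in vehicle, 1538 higher under thapsigargin, and 62 and 163 for the difference. The difference had 301 higher genes after the length trend was removed and 211 lower by edgeR; the cause was not tested. By edgeR 1985 were higher and 2395 lower in vehicle, and by DESeq2 2178 and 2269. With the replicate block the counts were 2871 and 2882. Same-numbered libraries had correlations of -0.161, -0.171 and 0.0825 between their deviations from the group means. With 3 libraries a group and deviations that follow transcript length, these correlations cannot show whether the numbers pair the libraries. Of 127 called genes named, 15 lost the call under some alternative: NAP1L4, CARS, OSBPL5, TRIM68, TRPM7, SLC8A1, KRT16, KRT18, BST2, PCSK1, VGF, KMT2A, CDKN2D, COL1A2 and CD68. For SLC8A1 and BST2 this was the alternative chosen after seeing the data, the length trend removed and siCont replicate 1 left out. Under it EPCAM, not called in the full fit, was called higher at 0.14. Depth limits low genes such as MMP10 and MT1F, and 1 derivative with 3 libraries a group limits the rest.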

Other observations

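Counts for lists not described so far follow, beside 20.9% of all genes called higher and 21.1% lower with siSTIM1. Those shares were 17.4% and 17.5% without siCont replicate 1, and 17.7% and 18.9% under thapsigargin. Of 17 tested NF-kB targets 7 were called higher and 3 lower with siSTIM1, and of 17 YAP-TEAD targets also 7 and 3. Of 22 genes of ERK feedback and EGF ligands 8 were higher and 4 lower, but 6 and 6 without siCont replicate 1 and 8 and 7 after the length trend was removed. Of 15 Notch genes 3 were higher and 5 lower, and 1 and 4 without siCont replicate 1; without siSTIM1 replicate 1 or replicate 3, 1 was higher. The list of ATF6-XBP1 chaperones and degradation factors, which serve protein folding in the endoplasmic reticulum, had 4 of 27 higher and 5 lower in vehicle, 4 and 3 without siCont replicate 1, and 9 and 0 under thapsigargin. Redox genes of the NRF2 list had 4 of 20 higher and 7 lower, and 7 and 6 after the length trend was removed. Lysosome and autophagy genes had 3 of 20 higher and 6 lower. The BCL2 family of cell death regulators had 2 of 14 higher and 4 lower, with 2 lower without siCont replicate 1 or replicate 2. Chemokines, cytokines and their receptors had 4 of 12 higher and 5 lower in vehicle, with 2 lower without siCont replicate 1, and 0 higher and 8 lower under thapsigargin. Proteasome genes were lower in 11 of 26 and higher in 1, with 6 lower without siCont replicate 1 or siSTIM1 replicate 1 and 5 without siSTIM1 replicate 3.

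CYP24A1, the enzyme that degrades active vitamin D, had 686, 679 and 835 normalized counts with siSTIM1, against 190, 292 and 280 with siCont in vehicle (1.54). Under thapsigargin the log2 fold change was 2.92. HES1, a Notch target, was lower with siSTIM1 in vehicle (-0.46, and -0.26 after the length trend was removed) and higher under thapsigargin (0.92).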
